A study of Homo sapiens with 24 samples.

Results

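The data described here are the 3 arrays labelled H441 among the 12 arrays of cells that expressed a scrambled shRNA, set against the 9 arrays of H2009, A549 and H460 cells with the same scrambled shRNA (δscr). They were chosen by title and cell line alone. The whole series holds 24 arrays, and the other 12 come from the same lines with the PKCδ shRNA δ193. The 4 lines are human lung cancers of the non-small cell type that carry a K-ras mutation, and their total RNA was read on Affymetrix gene arrays, which report 1 value on a log2 scale for each transcript cluster. The study classed H441 and H2009 as K-ras dependent, and A549 and H460 as K-ras independent. All 4 lines carried stable lentiviral shRNA, and each δscr group had 3 replicate arrays, which the methods of the study call biological replicates. Each group is a single cultured line, so a difference between groups is a difference between individual cell lines, and the p-values measure only the spread between the arrays of a line.

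H441 was derived from a papillary lung adenocarcinoma and is known in the field as a line with features of club cells and of alveolar type II cells, the cells that make pulmonary surfactant. Surfactant is a film of phospholipid and protein that lowers surface tension in the alveolus. Its proteins are SP-A (genes SFTPA1 and SFTPA2) and SP-D (SFTPD), which bind microbes, and SP-B (SFTPB) and SP-C (SFTPC), small hydrophobic proteins that spread the lipid. The transcription factor NKX2-1 drives these genes, and SP-B and SP-C are matured by proteases such as napsin A (NAPSA) and stored in lamellar bodies that the lipid pump ABCA3 fills. The arrays labelled H441 did not carry this programme at high values and were more like H460 than any other line, so every value below is given under the label of its array.

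Surfactant genes were at low values in all 4 lines, and the arrays labelled H441 did not stand out as a surfactant-producing line. SFTPB had array values of 4.03, 4.06 and 3.95 in the H441 arrays. The values were 3.66, 3.91 and 3.83 in H2009, 4.09, 4.27 and 4.30 in A549, and 3.87, 3.92 and 3.81 in H460. The H441 arrays lay within the range of the other 9, and their mean differed from the mean of the other lines by 0.05 (SE 0.07, adjusted p = 0.581 by limma with the Benjamini-Hochberg adjustment over 18417 genes). SFTPD also overlapped between all lines, with 5.29 ± 0.24 (SD, n = 3 arrays) in H441, 5.34 ± 0.08 in H2009, 5.22 ± 0.16 in A549 and 5.34 ± 0.13 in H460 (difference from the mean of the other lines -0.01, SE 0.10, adjusted p = 0.955).

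SFTPC was slightly higher in the H441 arrays. Its values were 5.63, 5.25 and 5.28 in H441, against 4.73, 4.82 and 4.81 in H2009, 4.99, 4.76 and 4.73 in A549, and 5.18, 4.71 and 4.73 in H460. All 3 H441 arrays lay above the 9 others, by a difference of 0.56 from the mean of the lines (SE 0.11, adjusted p = 0.000584), and SFTPC passed the test against each line. Calls here needed a log2 difference of at least 0.32 and an adjusted p below 0.05, and 20.1% of all genes tested were called higher in H441 than the mean of the other lines. Among the 4014 genes with a mean between 4 and 5.5 over the 12 arrays, 8.0% had a difference as large as that of SFTPC or larger.

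SFTPA1 and SFTPA2 are near-identical neighbours on chromosome 10, and the array could not tell them apart. Each of their 4 clusters lists both symbols, and the 4 hold only 2 distinct sets of values. In the first set the H441 arrays had 5.02, 5.25 and 4.88, against line means of 4.36 in H2009, 4.37 in A549 and 4.28 in H460 (difference 0.71, SE 0.09, adjusted p = 2.81e-05 in a limma fit over all 33252 clusters). In the second set they had 5.37, 5.33 and 4.77, against 4.26, 4.43 and 4.22 (difference 0.85, SE 0.12, adjusted p = 0.000111). In that fit 20.3% of clusters were called higher than the mean of the other lines. The rises of SFTPC and SP-A were small on the scale of these arrays, on which abundant messages such as the keratin KRT8 reached 12.01.

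Background levels were not analysed here, so genes that lung cells do not use served as a rough scale. The 341 olfactory receptor genes had line means from 2.51 at their 5th percentile to 4.09 at their 95th, with a median of 3.04. SFTPB in H441 (4.01) lay inside that range, while SFTPC, SFTPD and SP-A lay above its upper end in H441 and also in the other lines. Different probes were read for each gene, so these values give only an approximate scale. The H441 arrays also read higher at the bottom of the range in general. The median of the olfactory receptor genes was 3.11 in H441, 2.98 in H2009, 3.03 in A549 and 2.97 in H460. For the 3683 genes with the lowest means the median difference of H441 from the other lines was 0.09, against -0.20 for the 3684 genes with the highest means. With the 12 arrays quantile normalized again, which makes their distributions equal, the difference of SFTPC was 0.54 in place of 0.56 (adjusted p = 0.000897). Whether the rise of SP-A shares this shift was not tested.

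**Figure D1:**
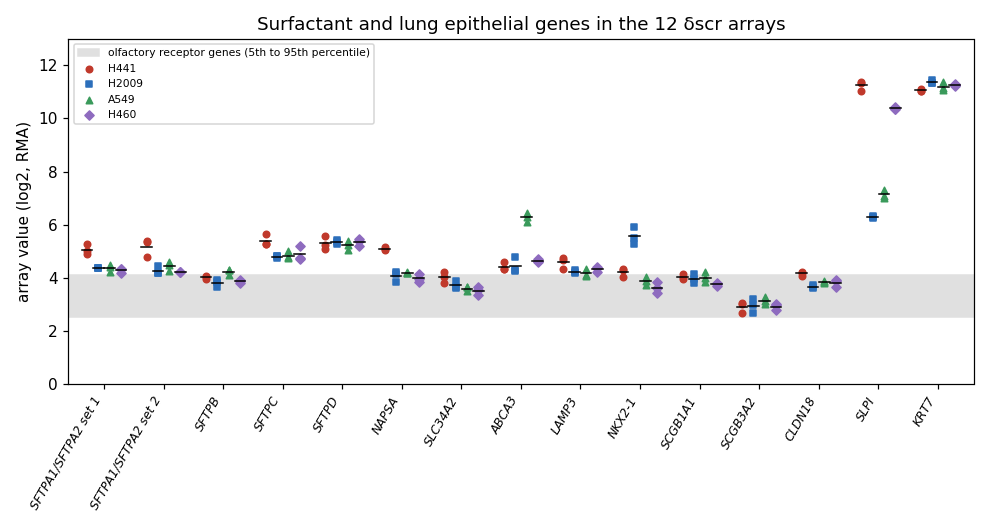
Array values (log2, RMA) of surfactant, lamellar body and lung epithelial genes in the 12 δscr arrays, with 3 points per line, black bars at the line means and a grey band from the 5th to the 95th percentile of olfactory receptor genes (2.51 to 4.09). SFTPB, SCGB1A1 and SCGB3A2 sit in or next to the band in all lines, NKX2-1 stands out in H2009 (mean 5.55) and not in H441 (4.21), and SLPI (11.24) and KRT7 (11.07) are high in H441.

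The δ193 arrays, which come from separate cultures, gave similarly low surfactant values. SFTPB was 3.96 in the H441 δ193 arrays against 4.13 in H2009, 4.09 in A549 and 3.88 in H460 (difference -0.07, adjusted p = 0.615). SFTPC was 5.06 in H441, and its difference of 0.27 did not reach the 0.32 needed (adjusted p = 0.0459). The SP-A clusters differed by 0.20 and 0.33. Thus the SFTPC call of the δscr arrays was not found again in the δ193 arrays.

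Genes that process and store surfactant were called in both directions, more often higher. Of 17 measured members of that list, 7 were called higher and 3 lower in H441 than the mean of the other lines, with a median difference of 0.11, against 20.1% higher and 24.6% lower and a median of 0.03 over all genes. NAPSA, the protease that matures SP-B, had 5.03, 5.16 and 5.08 in H441 and line means of 4.06 in H2009, 4.19 in A549 and 3.97 in H460, so that its 3 H441 arrays lay above all others (difference 1.02, SE 0.08, adjusted p = 1.56e-07). CSF2RA, a chain of the receptor for GM-CSF, which governs surfactant clearance, was higher by 1.27 (5.80 in H441), and PCYT1A, the rate-limiting enzyme of phosphatidylcholine synthesis, by 0.77 (8.54). CHPT1, which makes phosphatidylcholine in the last step of that pathway, was lower by 1.49 log2 units in H441 (8.80, against 10.06 to 10.41 in the other lines). ABCA3 was 4.4 in H441, 4.43 in H2009 and 4.64 in H460 and reached 6.27 only in A549. The phosphate carrier SLC34A2 of type II cells had 4.02 in H441 and 3.51 to 3.71 elsewhere, within the olfactory receptor range in all 4 lines. Of the 7 called higher, SLC34A2 and CD36 (3.07 in H441) thus read within that range, and LAMP3 (4.57) not far above it.

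NKX2-1 was not high in the arrays labelled H441. Its values there were 4.34, 4.27 and 4.03, against 5.25, 5.5 and 5.90 in H2009, 3.89, 3.72 and 4.03 in A549, and 3.83, 3.41 and 3.60 in H460. H2009 lay above all other arrays. H441 lay below H2009 by a called difference and above H460 by a called difference, and the difference from the mean of the lines did not pass (-0.13, adjusted p = 0.393).

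Most of the wider group of lung epithelial transcription factors were lower in H441 than the mean of the lines, while calls against H460 were divided. Of 18 measured, 12 were called lower and 3 higher than the mean, against 24.6% and 20.1% of all genes, and the median difference was -0.71. Against A549 alone 13 were lower and 2 higher, when 25.8% and 22.6% of all genes were called in those directions. Against H460 alone 7 were lower and 6 higher, with a median difference of -0.04. Those lower than in each line were ID2, NFIB, FOXA1, FOXP1, SOX9 and CEBPD. FOXA1, which opens chromatin for other factors in endodermal cells, was 7.19 in H441 against 7.81 in H2009, 8.91 in A549 and 8.60 in H460 (adjusted p = 2.66e-08). ID2, found in the tips of the developing lung, was 6.54 against 6.90, 9.40 and 8.79, and EHF, an epithelial ETS factor, was 4.44 against 6.4, 7.61 and 3.88.

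Of 17 measured markers of club and other secretory cells, 6 were called higher and 1 lower in H441 than the mean of the lines, against 20.1% and 24.6% of all genes. Among those higher, BPIFB1 (4.055) and STEAP4 (3.51) read within the olfactory receptor range in H441, and CYP2F1 (4.22) just above it. The secretoglobins were not among those higher. SCGB1A1, the main club cell secretory protein, was 4.03 in H441 and between 3.75 and 4.0 in the other lines (difference 0.13, adjusted p = 0.228), and SCGB3A2 was 2.90 in H441 and no higher than 3.13 elsewhere. SLPI, a secreted protease inhibitor of airway fluid, had 11.33, 11.38 and 11.02 in H441, 10.37, 10.44 and 10.37 in H460, and line means of 6.28 in H2009 and 7.14 in A549. The 3 H441 arrays lay above all 9 others (difference from the mean 3.31, SE 0.09, adjusted p = 1.2e-11), and H460 was nearest. TSPAN8, a membrane tetraspanin, also had H441 and H460 as the highest lines, with 9.03 in H441, 8.28 in H460, 6.12 in H2009 and 6.08 in A549. The aldehyde dehydrogenase ALDH1A1 was 11.58 in H441, below A549 (12.14) and above H2009 (8.48) and H460 (9.80). LCN2, an iron-binding defence protein, was 6.20 in H441 and 6.23 in H460, against 8.43 in H2009 and 8.44 in A549. In the δ193 arrays SLPI had 9.71, 9.99 and 9.17 in H441 and 9.59, 9.64 and 9.59 in H460, so these arrays overlapped. TSPAN8 was 8.71 in H441 and 7.93 in H460 there.

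Other cell types the label or the culture could bring into question were checked in the same way, and their counts are to be read against the 20.1% of all genes called higher and the 24.6% called lower than the mean of the lines. Of 12 alveolar type I markers 2 were higher and 5 lower, led by the caveola protein CAV1 (9.26 in H441, 10.16 to 11.37 elsewhere). Of 13 ciliated cell markers 1 was higher and 1 lower, and FOXJ1, the ciliated cell factor, read 4.67 in H441 and 4.4 to 4.59 elsewhere. Of 11 basal and squamous markers 1 was lower and none higher. Of 14 immune cell markers 1 was higher, CD68, a lysosomal protein also found outside macrophages, at 10.42 in H441 and 10.44 in H460. The leukocyte antigen PTPRC (CD45) read 2.79 in H441, within the olfactory receptor range. Of 15 fibroblast and endothelial markers 2 were higher and 1 lower, and DCN, PDGFRA and FAP read 2.66, 3.22 and 2.88 in H441. Of 11 neuroendocrine markers 2 were higher and 2 lower.

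Of the 4 lines, H460 was the one the arrays labelled H441 most resembled. The correlation of an H441 array with an H460 array, taken across 18417 genes that share normalization and are not independent, ran from 0.960 to 0.965, against 0.930 to 0.938 with H2009 and 0.920 to 0.924 with A549. The line means of H441 and H460 were at least 3 log2 units apart for 21 genes. This number was 137 for H441 and H2009, 209 for H441 and A549, and 109 to 235 for the pairs that did not include H441. H460 was also the line nearest to H2009 and to A549, with correlations of 0.955 to 0.958 between H2009 and H460 arrays and of 0.942 to 0.945 between A549 and H460 arrays. Among 366 genes whose means spanned at least 3 log2 units over H2009, A549 and H460, H441 lay nearest to H460 for 229 genes (62.6%), to H2009 for 88 (24%) and to A549 for 49 (13.4%). For 293 of the 366 genes (80.1%) H441 was within 1 log2 unit of H460. Over all genes tested, most of which differ less between the lines, no such lead was seen. There H441 lay nearest to A549 for 6556 genes, to H460 for 6365 and to H2009 for 5496. Every pair of lines still differed widely, since 1721 genes were at least 1 log2 unit apart between H441 and H460, compared with 2697 between H441 and H2009 and 2739 between H441 and A549. By this smaller distance H441 and H460 were not the closest pair, since H2009 and H460 differed for 1650 genes and A549 and H460 for 1748. No array was a copy of another, and the 3 H441 arrays correlated at 0.992 among themselves. The label says H441, and the values here are given under that label. The methods of the study state that its lines were authenticated by DNA profiling, and identity was not tested here.

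**Figure D2:**
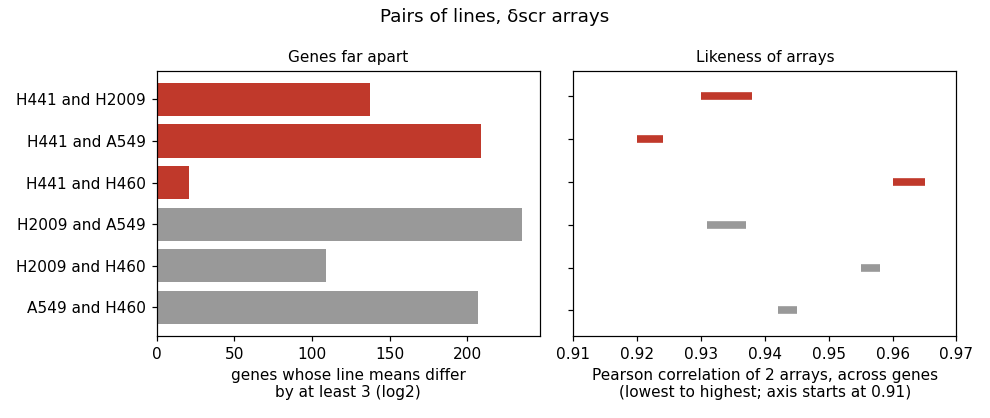
Left, number of genes whose line means differed by at least 3 log2 units for each pair of lines in the δscr arrays; right, lowest to highest Pearson correlation between single arrays of the 2 lines, across genes, on an axis that starts at 0.91. Pairs with H441 are in red, and the pair of H441 and H460 has the fewest distant genes (21) and the highest correlations (0.960 to 0.965).

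The epithelial programme separated H441 from H2009, the other K-ras dependent line. CDH1, which encodes the adherens junction protein E-cadherin, had 6.59, 6.46 and 6.17 in H441. Its values were 11.19, 11.34 and 11.16 in H2009, 8.10, 8.92 and 9.16 in A549, and 5.54, 5.55 and 5.71 in H460. H441 thus lay far below H2009 and A549 and above H460, with no overlap. EPCAM, an epithelial cell surface adhesion protein, had 6.10, 5.94 and 5.63 in H441 against line means of 11.20 in H2009, 4.71 in A549 and 5.45 in H460. The desmosome protein desmoplakin (DSP) was 4.29 in H441 and 4.88 in H460, against 8.54 in H2009 and 7.18 in A549, and was the sole member of the list lower in H441 than in each line. The protease inhibitor SPINT2 (5.57), the small GTPase RAB25 (3.13), the membrane protease ST14 (4.59), the epithelial factor GRHL2 (4.32) and P-cadherin (CDH3, 4.76) all had H2009 as the highest line.

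Over the 29 measured epithelial junction and polarity genes, 15 were lower and 3 higher in H441 than the mean of the lines, with a median difference of -0.41. Against H2009 alone 21 were lower and 3 higher (median -1.84), when 25.3% and 24.1% of all genes were called in those directions. Against H460 alone 16 were higher and 4 lower (median 0.41), when 21.3% and 24.2% of all genes were called. With H2009 left out of the mean, 13 were higher and 7 lower, so the count against the mean rested on H2009. KRT8 and KRT7, keratins of simple epithelia, were high in all lines. KRT8 was 12.01 in H441 and 11.79 to 12.48 elsewhere, KRT7 was 11.07 against 11.20 to 11.38, and KRT19 was 8.86 in H441, below H2009 (10.74) and above H460 (6.70) and A549 (5.24).

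**Figure D3:**
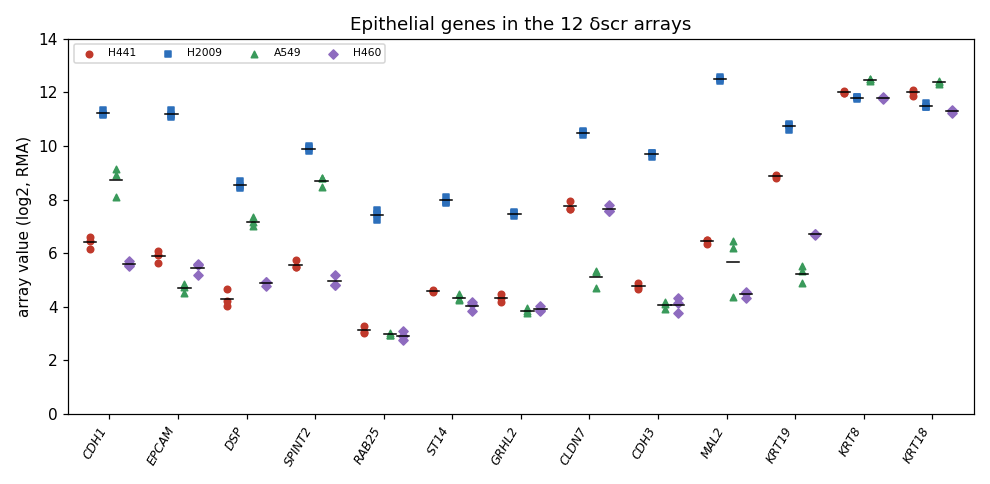
Array values (log2, RMA) of 13 epithelial genes in the 12 δscr arrays, with 3 points per line and black bars at the line means. H2009 is the highest line for CDH1, EPCAM, DSP, SPINT2 and the 7 genes that follow, and KRT8 and KRT18 are high in all 4 lines. H441 lies within 1 log2 unit of H460 for CDH1 (6.41 and 5.60) and DSP (4.29 and 4.88), but well above it for KRT19 (8.86 and 6.70).

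Mesenchymal genes were called in both directions. Vimentin (VIM) was 10.77 in H441 and 10.81 to 11.26 in the other lines, and N-cadherin (CDH2) was 9.64 in H441, 9.46 in H2009, 9.59 in H460 and 6.82 in A549. Of 25 measured members 9 were higher and 5 lower than the mean of the lines, against 20.1% and 24.6% of all genes. Collagen V chain COL5A2 (8.10 in H441, 4.8 to 6.05 elsewhere), ACTA2 (smooth muscle actin, 8.15 against 6.88 to 7.57) and COL1A1 (6.49 against 6.03 to 6.16) were higher than in each line. SNAI2, a repressor of E-cadherin, was 5.66 in H441 and 5.82 in A549, against 10.05 in H2009 and 9.40 in H460, which makes it one of the few genes by which H441 differed strongly from H460.

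A total of 1800 genes were higher in H441 than in each of the 3 other lines (9.77% of the genes tested) and 2187 were lower (11.9%). Which direction held more genes depended on the scaling, since with the 12 arrays quantile normalized again 2133 were higher and 1835 lower, and with array medians set equal 1948 and 2089. The 3 comparisons share the H441 arrays. With a fold of at least 2 in each, 218 genes were higher (1.18%) and 423 lower (2.3%). The H441 arrays did not overlap the 9 others for 2400 genes that lay above (13%) and 2677 that lay below (14.5%). Genes lower than in each line were found mostly at high values. Of the 3684 genes with the highest means, 1037 were lower than in each line and 423 higher, whereas of the 3683 genes with the lowest means 3 were lower and 160 higher. The H441 arrays also had a narrower spread of values over genes, with a standard deviation of 2.13 to 2.15, against 2.20 to 2.29 on the other arrays. Quantile normalization, which gave the counts of 2133 and 1835 above, removes this difference in spread.

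The genes most clearly higher in H441 were ranked by margin, the smallest of the 3 differences from another line, among genes whose arrays did not overlap. RNU5D-1, a copy of the U5 small nuclear RNA of the spliceosome, had the largest margin (4.09). Its values were 9.47, 9.43 and 9.07 in H441 and between 3.21 and 5.38 on the 9 other arrays, but U5 genes are near-identical copies, so the value may not belong to this copy alone. LRCH2, a leucine-rich repeat protein gene on chromosome X, had 7.40, 7.61 and 6.76 in H441 and line means of 4.19 in H2009, 3.50 in A549 and 3.96 in H460. MME, which encodes neprilysin (CD10), a cell surface peptidase, had 9.5, 9.08 and 9.0 in H441 and means of 5.82, 4.13 and 6.17 (margin 3.02, adjusted p against the mean of the lines = 2.18e-11). For each of these genes H441 was more than 3 log2 units above every other line.

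Several of the other 12 encode secreted or matrix proteins. IL1B, the cytokine interleukin 1 beta, had 9.26, 8.92 and 8.81 in H441, against means of 6.72 in H2009, 4.38 in A549 and 5.62 in H460. SULF1, a sulfatase that trims heparan sulfate, was 7.29 against 3.44, 3.61 and 4.85, and FBN2, fibrillin 2 of elastic fibres, 7.01 against 4.35, 4.81 and 4.47. The complement protease C1S had 9.81, 9.5 and 9.62 in H441 and means of 5.83, 6.49 and 7.60. CPA4, a carboxypeptidase, was 7.61 against 4.71, 5.60 and 5.56. Among the intracellular products, the lipid-binding protein FABP4 had 7.33, 7.51 and 6.75 in H441, against 2.72, 2.44 and 5.07, so that only H460 approached it. S100A6, a calcium-binding protein, was 8.92 against 6.76, 6.84 and 6.91, and PDCD4, an inhibitor of translation initiation, 9.16 against 6.43, 6.35 and 7.05. SLC12A3, the thiazide-sensitive sodium chloride cotransporter known from the kidney, had 8.34, 8.37 and 8.43 in H441 and means of 5.45, 5.22 and 5.87. The remaining ones were PSMB8, described with its pathway, COL5A2 and the noncoding RNA LINC00326 (6.00 against 2.76 to 3.04).

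**Figure D4:**
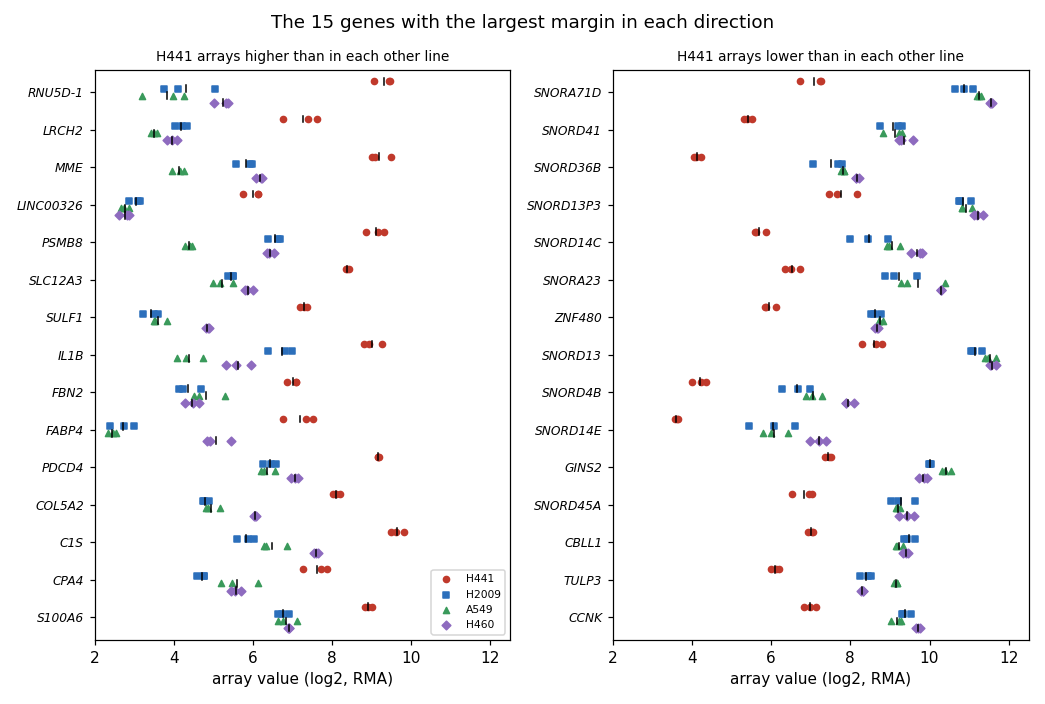
Array values (log2, RMA) of the 15 genes with the largest margin above (left) and below (right) each other line, with 3 points per line and black bars at the line means. The H441 arrays stand apart from all 9 others for each gene, and 10 of the 15 genes on the right are small nucleolar RNAs.

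Small nucleolar RNAs filled most of the list of genes lower in H441. Many of these short RNAs guide the methylation or pseudouridylation of ribosomal RNA, and most are cut from the introns of host genes. SNORA71D had 7.25, 7.24 and 6.73 in H441, against means of 10.87 in H2009, 11.25 in A549 and 11.55 in H460, a margin of 3.8. SNORD41 was 5.40 in H441 and 9.08 to 9.36 elsewhere, and SNORD36B 4.13 against 7.52 to 8.17. Of the 15 genes with the largest margin, 10 were small nucleolar RNAs, and SNORD13P3 is a copy of SNORD13 while SNORD14C and SNORD14E belong to a single family, so that probes may read more than 1 copy. Over all 192 small nucleolar and Cajal body RNAs tested, a list made after the values were seen, 85 were lower and 15 higher than the mean of the lines, with a median difference of -0.26, against 24.6% and 20.1% of all genes. Relative to each line 53 were lower and 8 higher, against 11.9% and 9.77%. They also made up 12 of the 21 genes at least 3 log2 units from H460, all 12 of them lower in H441. The part of short RNA recovery in these values was not tested.

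The other 5 genes with the largest negative margin encode proteins. GINS2, a subunit of the helicase complex that opens DNA for replication, had 7.36, 7.50 and 7.45 in H441, against means of 10.01 in H2009, 10.42 in A549 and 9.84 in H460 (difference from the mean of the lines -2.65, SE 0.07, adjusted p = 1.2e-11). The zinc finger gene ZNF480 was 5.94 in H441 and 8.63 to 8.76 elsewhere. CBLL1 (7.0 against 9.22 to 9.48) encodes an E3 ubiquitin ligase, CCNK (6.98 against 9.18 to 9.71) the cyclin K partner of transcriptional kinases, and TULP3 (6.10 against 8.30 to 9.16) a protein that carries receptors into the primary cilium. The other lines lay close together for ZNF480, CBLL1 and CCNK, and H441 alone stood apart.

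Nearly all of these genes were called in the same direction in the δ193 arrays, some of them with much smaller differences. Of the 15 genes higher by margin, 14 were also called higher than in each line there, with CPA4 as the exception (4.23 in H441, 4.47 in H2009, 5.54 in A549 and 5.38 in H460), and all 15 of the lower genes were again lower. In the δ193 arrays 8.55% of genes were called higher and 10.9% lower than in each line. Of the 1800 genes higher in the δscr arrays, 1080 were also higher in the δ193 arrays (60% of the first and 68.6% of the second list), and for lower genes the number was 1595 (72.9% and 79.6%). Some differences were smaller in the δ193 arrays. FABP4 was 3.79 above the mean of the lines with δscr and 0.54 with δ193. It read 3.17 in the H441 δ193 arrays, within the olfactory receptor range. The δscr and δ193 differences were 3.82 and 1.57 for MME, and 3.32 and 1.3 for SULF1. They were 2.86 and 0.94 for SLC12A3, and 2.47 and 0.85 for FBN2. Others stayed close, among them PSMB8 (3.32 and 3.28) and PDCD4 (2.55 and 2.5). The δ193 arrays of all lines differ from the δscr arrays by their shRNA, so these values are set side by side only.

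Most measured genes of the MHC class I pathway were higher in H441 than the mean of the lines. Of the 9 measured, 3 were higher than in each line, when 9.77% of all genes were. This pathway cuts proteins with the immunoproteasome (PSMB8, PSMB9), carries the peptides into the endoplasmic reticulum (TAP1, TAP2), trims them (ERAP1, ERAP2) and loads them on class I chains paired with β2-microglobulin (B2M). Its genes are known to respond to interferon through the interferon-stimulated response element and the gamma-activated site, and to NF-κB. The upstream sequence of 3 of the genes that were higher is shown here because these regulatory sequences are known for the family. Each is 250 bases that end just before a RefSeq start in GRCh38.p14, from 5′ to 3′ on the strand of the gene. Capitals mark 3 motifs searched on both strands. They are the interferon-stimulated response element, taken as GAAA and GAAA with 2 bases between, the gamma-activated site, taken as TTC and GAA with 3 bases between, and the NF-κB site, taken as GGG and TTCC with 3 bases between.
B2M, chr15:44711267-44711516, plus strand: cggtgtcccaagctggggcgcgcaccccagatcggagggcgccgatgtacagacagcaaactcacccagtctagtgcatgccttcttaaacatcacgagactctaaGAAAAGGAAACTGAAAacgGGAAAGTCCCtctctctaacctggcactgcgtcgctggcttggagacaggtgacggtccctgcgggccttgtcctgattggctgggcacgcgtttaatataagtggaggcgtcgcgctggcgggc
TAP1, chr6:32853705-32853954, minus strand: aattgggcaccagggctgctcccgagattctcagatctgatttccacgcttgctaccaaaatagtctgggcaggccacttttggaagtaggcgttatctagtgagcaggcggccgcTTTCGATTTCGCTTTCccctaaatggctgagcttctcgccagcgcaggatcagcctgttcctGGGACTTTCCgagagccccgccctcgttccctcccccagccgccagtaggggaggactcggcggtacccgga
PSMB8 (second listed start), chr6:32844048-32844297, minus strand: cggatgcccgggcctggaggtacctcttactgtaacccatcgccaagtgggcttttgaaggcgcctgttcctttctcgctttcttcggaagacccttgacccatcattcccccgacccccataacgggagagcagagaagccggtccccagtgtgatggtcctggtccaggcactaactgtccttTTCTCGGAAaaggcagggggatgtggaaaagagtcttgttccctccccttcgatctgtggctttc
In B2M, a pair of overlapping response element matches began 144 and 138 bases before the start, and an NF-κB match followed at 125 bases. TAP1 held matches of the same motifs in the opposite orientation and with a wider gap between them. Its overlapping response element matches were at 134 and 128 bases, and its NF-κB match was at 72 bases. The PSMB8 window shown, of its second listed start, held a gamma-activated site match at 65 bases. The window of its first listed start held none of the motifs. Of all 35116 windows of this length, 3.02% held the response element, 6.57% the gamma-activated site and 5.67% the NF-κB site. Of the 8 measured members of the list with an entry, 5 had a response element match in at least 1 window, 2 a gamma-activated site match and 3 an NF-κB match. Counted by window, as for all windows, 5, 2 and 3 of the 12 windows of these genes held them. PSMB9 and ERAP1, both called higher than the mean of the lines, had no match in any window. The PSMB9 window overlaps that of TAP1 but does not reach the TAP1 matches. ERAP2, called lower than the mean, had a response element match. TAPBP, lower than in A549, had response element and NF-κB matches. The windows printed above are thus ones that hold a match, from genes that were higher. Whether matches go with the direction of the difference was not tested. A match is a run of letters and not a measured site of binding.

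Of the 9 measured members, 6 were called higher and 2 lower than the mean of the lines, against 20.1% and 24.6% of all genes, with a median difference of 0.49. Against H460 alone 3 were higher and none lower (21.3% and 24.2% of all genes), with a median of 0.25. PSMB8 had 9.31, 9.16 and 8.86 in H441, against 6.69, 6.39 and 6.63 in H2009, 4.28, 4.46 and 4.4 in A549, and 6.41, 6.53 and 6.35 in H460 (difference 3.32, SE 0.10, adjusted p = 1.5e-11). Its H441 arrays lay above every other array, A549 had the lowest values, and its 3 clusters held identical values. B2M had 10.88, 10.76 and 10.67 in H441 and means of 8.98 in H2009, 8.40 in A549 and 9.58 in H460 (difference 1.78, SE 0.08, adjusted p = 3.43e-10). PSMB9 was 8.44 against 7.28, 7.01 and 7.05, again with no overlap. TAP1, which faces PSMB9 on chromosome 6, was 8.25 against 7.81, 7.48 and 8.01, and its difference of 0.25 from H460 did not reach the 0.32 needed. ERAP1 was higher by 0.72. TAPBP, the chaperone tapasin, was 8.92 in H441 and lower than in A549 (9.96), and ERAP2 was 4.26 in H441, near H460 (4.21) and below H2009 (7.67). The classical class I heavy chain genes were not analysed here. Of 11 measured MHC class II genes 2 were higher and none lower, and CIITA, the class II transactivator, read 4.68 in H441 and 4.45 to 4.74 elsewhere.

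Some complement genes were higher as well. Of 25 measured complement and acute phase genes, 9 were higher and 3 lower than the mean of the lines, against 20.1% and 24.6% of all genes, and 7 were higher than in each line, when 9.77% of all genes were. The proteases that start the classical pathway, C1S (9.64) and C1R (7.91 in H441, 5.62 in H2009, 6.06 in A549, 6.62 in H460), were higher by 3.0 and 1.81. Factor I (CFI), which cleaves C3b and C4b, was 6.92 against 3.88, 3.30 and 5.28. Factor D (CFD), which activates the alternative pathway, was 8.76 against 6.53, 7.71 and 7.48, and C3, the protein on which the pathways meet, 11.13 against 8.73, 9.89 and 10.57. For CFI, C1R, C1S, C3 and SLPI alike, H460 was the second highest line. Ceruloplasmin (CP) was 8.46 in H441, between A549 (9.78) and H460 (7.11), and SERPINA1 was 5.31 in H441 and 9.47 in H2009. In the δ193 arrays H441 was again the highest line for C1S (8.6), C1R (6.86) and CFI (6.11). It was not for C3 (9.93 in H441 and 10.19 in H460) or CFD (7.64 in H441 and 7.88 in A549).

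**Figure D5:**
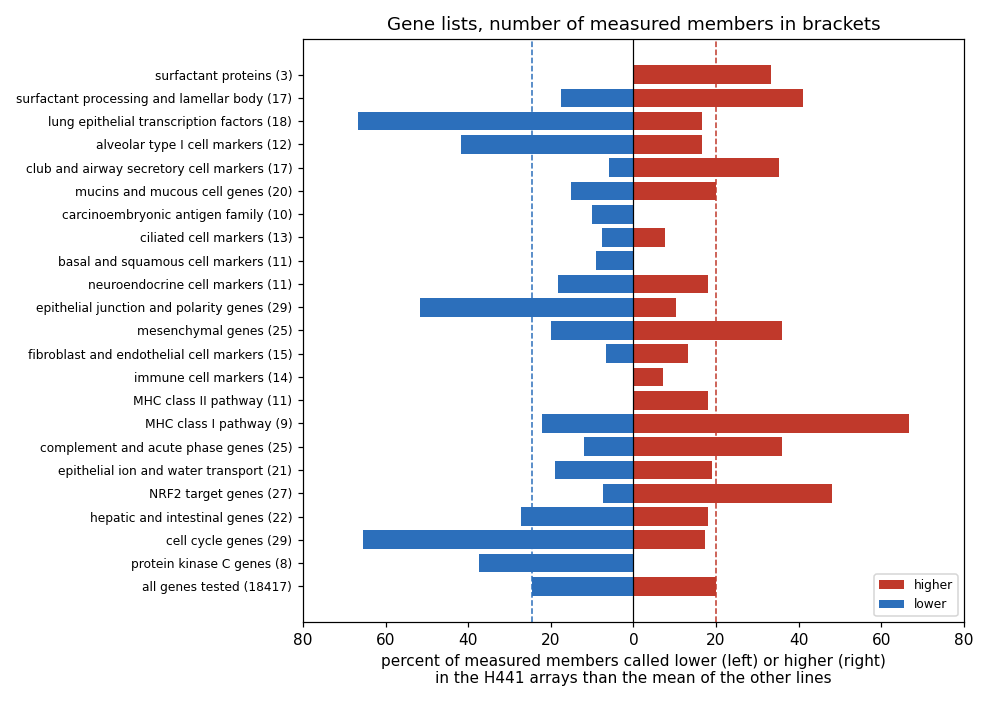
Percent of the measured members of each gene list called higher (red, to the right) or lower (blue, to the left) in the H441 arrays than the mean of H2009, A549 and H460, with the number measured in brackets and dashed lines at the shares over all genes tested (20.1% higher, 24.6% lower). Cell cycle genes, lung epithelial transcription factors and epithelial junction genes extend to the left of their line, and MHC class I pathway and NRF2 target genes to the right.

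Cell cycle genes were mostly lower in H441. Of 29 measured, 19 were lower and 5 higher than the mean of the lines, against 24.6% and 20.1% of all genes, with a median difference of -0.67. Lower than in each line were 14, when 11.9% of all genes were. Many of these genes read at high values, where lower calls were more frequent. Of the 3684 genes with the highest means, 43.3% were lower than the mean of the lines and 28.1% lower than in each line. The part of this level dependence in the cell cycle counts was not tested. MKI67, which encodes the proliferation antigen Ki-67, had 7.84, 7.71 and 7.88 in H441 and means of 9.5 in H2009, 8.97 in A549 and 9.5 in H460 (difference -1.51, SE 0.09, adjusted p = 4.76e-09). The kinetochore motor CENPE was 5.40 in H441 against 6.69 to 7.62, the mitotic transcription factor FOXM1 8.03 against 9.21 to 9.44, the checkpoint kinase BUB1 8.20 against 8.91 to 10.24, and the anaphase activator CDC20 9.45 against 10.50 to 10.69. The replication genes PCNA (10.46 against 9.42 to 9.89) and MCM6 (9.22 against 8.30 to 8.57) were instead higher than in each line. The genes for mitosis and those for replication thus did not all lie on the same side. The part of culture density was not tested.

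NRF2 target genes, which encode enzymes against oxidants and electrophiles, were mostly higher in H441 than in H2009. Of 27 measured, 22 were higher and 1 lower than in H2009, against 24.1% and 25.3% of all genes. Against A549 7 were higher and 9 lower (22.6% and 25.8% of all genes), and against H460 7 were higher and 6 lower (21.3% and 24.2%). Relative to the mean of the lines 13 were higher and 2 lower (20.1% and 24.6%). Without H2009 in the mean, 5 were higher and 8 lower. Thioredoxin (TXN) had 11.85, 11.70 and 11.62 in H441 and means of 10.73, 10.78 and 10.56 in H2009, A549 and H460, and its reductase TXNRD1 was 12.13 against 10.84, 11.06 and 11.39. Carbonyl reductase CBR1 completed those higher than in each line (8.86 against 7.68 to 8.29). AKR1B10, an aldo-keto reductase, was 10.52 in H441, between A549 (11.72) and H460 (9.86) and far above H2009 (5.95), and the glutathione peroxidase GPX2 was 4.0 in H441 and 11.78 in A549 alone.

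Other differentiation genes gave no single nearest line, and counts against the mean of the lines are again to be read beside 20.1% higher and 24.6% lower. Of 22 measured hepatic and intestinal genes 4 were higher and 6 lower, and H441 lay nearest to H2009 for 10, to H460 for 6 and to A549 for 6. CES1, a carboxylesterase of liver and lung macrophages, had 12.65, 12.65 and 12.63 in H441, 11.98, 12.01 and 11.87 in H460, and means of 10.05 in H2009 and 6.47 in A549. CPS1, the entry enzyme of the urea cycle, was 11.50 in H441, 11.08 in H460, 10.70 in A549 and 8.14 in H2009. The fibrinogen chains FGA and FGB were high in A549 (7.31 and 8.97) and read 3.25 and 3.45 in H441. Of 10 measured carcinoembryonic antigen genes 1 was lower and none higher. CEACAM6 was 11.73 in A549 and 3.61 in H441, 3.48 in H2009 and 3.51 in H460. Of 20 mucin and mucous cell genes 4 were higher and 3 lower, and MUC13 (8.70 in H441, 9.03 in H460) and the trefoil peptide TFF1 (7.16 in H441, 6.37 in H460) had H441 and H460 as the highest lines. Of 21 ion and water transport genes 4 were higher and 4 lower. The chloride channel CFTR read 2.77 in H441, and the sodium channel subunits SCNN1B and SCNN1G read 4.50 and 3.60, and none of the 3 was called against any line.

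PRKCD, the gene of PKCδ and the target of δ193, was 7.86 ± 0.22 (SD, n = 3 arrays) in the H441 δscr arrays, 8.17 ± 0.05 in H2009, 8.32 ± 0.04 in H460 and 6.97 ± 0.25 in A549. H441 lay near the mean of the lines (difference 0.04, SE 0.10, adjusted p = 0.771), above A549 by 0.89 (adjusted p = 3.2e-05) and below H460 with a difference of -0.46 (adjusted p = 0.00695). Of 8 measured protein kinase C genes 3 were lower than the mean and none higher, against 24.6% and 20.1% of all genes. PRKCA, the classical isoform PKCα, had 7.23, 7.19 and 7.11 in H441 and means of 8.40, 8.18 and 8.24, so that H441 lay below all 9 other arrays (difference -1.10, SE 0.07, adjusted p = 7.22e-09).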

How the data were processed

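Total RNA of 12 δscr arrays was compared, with 3 replicate arrays per line, called biological replicates in the methods of the study. The log2 values are those deposited by the authors, who had run RMA (background correction, quantile normalization and probe summarization) in Affymetrix Power Tools over all arrays; no version was found in those sources. The deposited distributions were close but not equal, with array medians of 4.78 to 4.90, so the direction with more calls depended on the scaling. Of 33252 clusters, 19460 had 1 symbol, and the brightest cluster stood for each of 18417 genes. Clusters with several symbols (1754) or none (12038) were left out, except those of SP-A.

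limma 3.58.1 in R 4.3.3 was fitted with 1 coefficient per line and a spread shared by the lines, and tested on simulated data. P-values were adjusted by Benjamini-Hochberg. Calls needed an adjusted p below 0.05 and a log2 difference of at least 0.32. Depth is not defined for arrays, and the 3 arrays per line limit precision.

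The members and the 22 gene lists, written from memory, were chosen with earlier results of these data known. The genes named were the surfactant protein genes and PRKCD, the 15 genes of largest margin either way, and at most 6 called genes per list; other list members, and a list of small nucleolar RNAs, were named after their values were seen. Promoter sequences came from RefSeq. XIST and Y-linked genes were left out. Same-numbered replicates of different lines correlated between -0.21 and 0.12 (1 of 18 pairs over 0.1), so the numbers were not taken as pairs. Alternatives covered the thresholds, the arrays, the spread, the methods' own test, the normalization, low values, the clusters of a gene and each array left out in turn.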

Additional observations from a re-analysis of the deposited data

How the results depend on the processing

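Of 260 gene counts over the alternatives run, 245 stayed within 1.5 times their value, and of the counts within gene lists 998 did and 146 did not. Scaling turned the balance of calls. With quantile normalization again, 2133 genes were higher and 1835 lower than in each line (1800 and 2187 as deposited), 4696 and 4181 than in H2009, and 3933 and 3844 than in H460, while against the mean 4063 and 4119 were called. With array medians set equal, the counts were 4785 and 4510 against H2009 and 4349 and 4283 against H460. A fold of at least 2 moved all 10, to 674 higher and 1186 lower against the mean of the lines, 923 and 1774 against H2009, 1166 and 1572 against A549, 480 and 1241 against H460, and 218 and 423 against each. With only genes whose mean lay above the median tested, which removes tested genes, those higher fell to 2288 against the mean, 2678, 2733 and 2122 against H2009, A549 and H460, and 1167 against each. With each array left out in turn, 3627 to 3833 genes were higher and 4504 to 4597 lower than the mean, 4052 to 4471 and 4494 to 4682 than H2009, 3958 to 4211 and 4642 to 4779 than A549, 3519 to 3969 and 4273 to 4511 than H460, and 1681 to 1860 and 2130 to 2233 than each. With the replicate number as a block, 1783 genes were higher and 2189 lower than in each line, and 3719 and 4530 against the mean. The numbers did not pair the samples.

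Of the differences from the mean of the lines for single genes, 3138 values kept their call, 77 lost the call and 19 turned in sign or rounded to 0.00. In the δ193 arrays those that turned were PRKCD (-0.52), the target of δ193, CPA4 (-0.90), AKR1B10 (-0.14), BPIFB1 (-0.27), CP (-0.22) and SGK1 (-0.05), and the cause was not tested. Without H2009 in the mean they were ERAP2 (0.43), AKR1B10 (-0.27), RAB25 (0.18), EPCAM (0.81) and AGR2 (-0.23). Without A549 they were PRKCD (-0.39), CEACAM6 (0.11), FGB (0.37), FGA (0.11), CDH17 (0.10), GCNT3 (0.38) and DDC (0.26). CHGB without A549 did not turn but rounded to 0.00. In these fits the mean rested on the other pair of lines. SFTPC lost its call at a fold of 2 and in the δ193 arrays (0.27). Without H460 in the mean no named difference turned. Low array values have no measured background, so absence of a message cannot be read from them.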
